A study of Mus musculus with 24 samples.

Results

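Nitric oxide and endothelin are opposing signals of the vessel wall, and the genes described here are 8 of those that make them or receive endothelin. These are the nitric oxide synthases Nos1, Nos2 and Nos3, the endothelin peptides Edn1 and Edn3, the endothelin-converting enzyme Ece1, and the receptors Ednra and Ednrb. They were taken by gene name from a table of 54532 genes measured by RNA sequencing in brain hemispheres of 24 male wild-type C57BL/6J mice aged 8 to 12 weeks. A vehicle group received saline by osmotic minipump for 14 days, an angiotensin II group received angiotensin II at 0.7 mg/kg/d in the same way, and both of these were given saline into the tail vein. The vehicle + amnion epithelial cells group and the angiotensin II + amnion epithelial cells group had the same infusions and 1000000 human amnion epithelial cells intravenously in place of saline. Each group held 6 mice. Angiotensin II is the effector hormone of the renin-angiotensin system and raises blood pressure when infused, and amnion epithelial cells are cells of the placental membranes with anti-inflammatory actions.

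Nitric oxide synthases make nitric oxide from arginine, with tetrahydrobiopterin as cofactor, and nitric oxide relaxes smooth muscle by activating soluble guanylate cyclase, which makes cyclic GMP. Endothelins are made as inactive precursors that converting enzymes cut, and they act on the receptor A of smooth muscle, which constricts vessels, and on the receptor B, which in endothelium promotes nitric oxide release and in brain is carried mainly by astrocytes. Angiotensin II is known to stimulate endothelin production in vessels, so the comparisons below ask whether angiotensin II infusion, the amnion epithelial cells or both moved these transcripts in the brain.

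All 8 genes are protein coding, and their positions are those of build GRCm38. Nos1 lies at chr5:117781032-117958840, Nos2 at chr11:78920787-78960254, Nos3 at chr5:24364810-24384474, Edn1 at chr13:42301476-42307990 and Edn3 at chr2:174760619-174784042. Ece1 lies at chr4:137862237-137965229, and the receptors Ednra and Ednrb lie on the reverse strand at chr8:77663031-77724464 and chr14:103814625-103844402. The whole span of each gene is given, introns included, whereas the gene lengths in the table are of exons. Exons of Nos3 share 294 bases with Atg9b, a gene on the opposite strand that was present at 2.27 FPKM. They share 1040 bases with the antisense gene Gm15587, which was at 0.183 FPKM. Strand use in the counting is not given in the sources used here, so reads from these bases cannot be assigned to any of these genes.

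Levels are FPKM, fragments scaled by exon length and by library size, so that different genes can be compared. Each library held 16536449 to 25308700 assigned reads, and all 8 genes were above 0 in 24 of 24 mice. In 6 libraries the FPKM values summed to 338334.5 to 348596.7, against 277115.9 to 298300.6 in the other 18, with a mitochondrial share of reads of 6.167 to 6.845% against 4.79 to 5.749%. These libraries, called here the 6 libraries of high total FPKM, were 2 of the vehicle group, 1 of the angiotensin II group, 1 of the vehicle + amnion epithelial cells group and 2 of the angiotensin II + amnion epithelial cells group. Many genes differed with this set, and each result below is also given without it where that matters. Markers of neurons, astrocytes, endothelium and microglia were present in all libraries, with neuronal markers summing to 701 to 793 FPKM, while pituitary hormone markers reached 1572 FPKM in 1 angiotensin II library that was otherwise used as it was.

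The converting enzyme Ece1 was the most abundant of the 8 transcripts, at 13.4 ± 0.911 FPKM (SD, n = 24), followed by the receptor Ednrb at 10.7 ± 1.34 FPKM. Ece1 was above Ednrb in 23 of 24 mice, although their ranges overlapped. Next came Nos1, the neuronal synthase, at 6.89 ± 0.639 FPKM and Nos3, the endothelial synthase, at 2.88 ± 0.546 FPKM, and in every mouse Ednrb was above Nos1 and Nos1 above Nos3. The peptides Edn3 (1.44 ± 0.290 FPKM) and Edn1 (1.30 ± 0.311 FPKM) were close, with Edn3 the higher in 16 of 24 mice, so these neighbours were not separated by more than their spread. The receptor Ednra was lower still at 0.806 ± 0.117 FPKM, and Nos2, the inducible synthase of activated immune cells, was the lowest at 0.229 ± 0.101 FPKM, 3 to 44 reads per library.

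**Figure D1:**
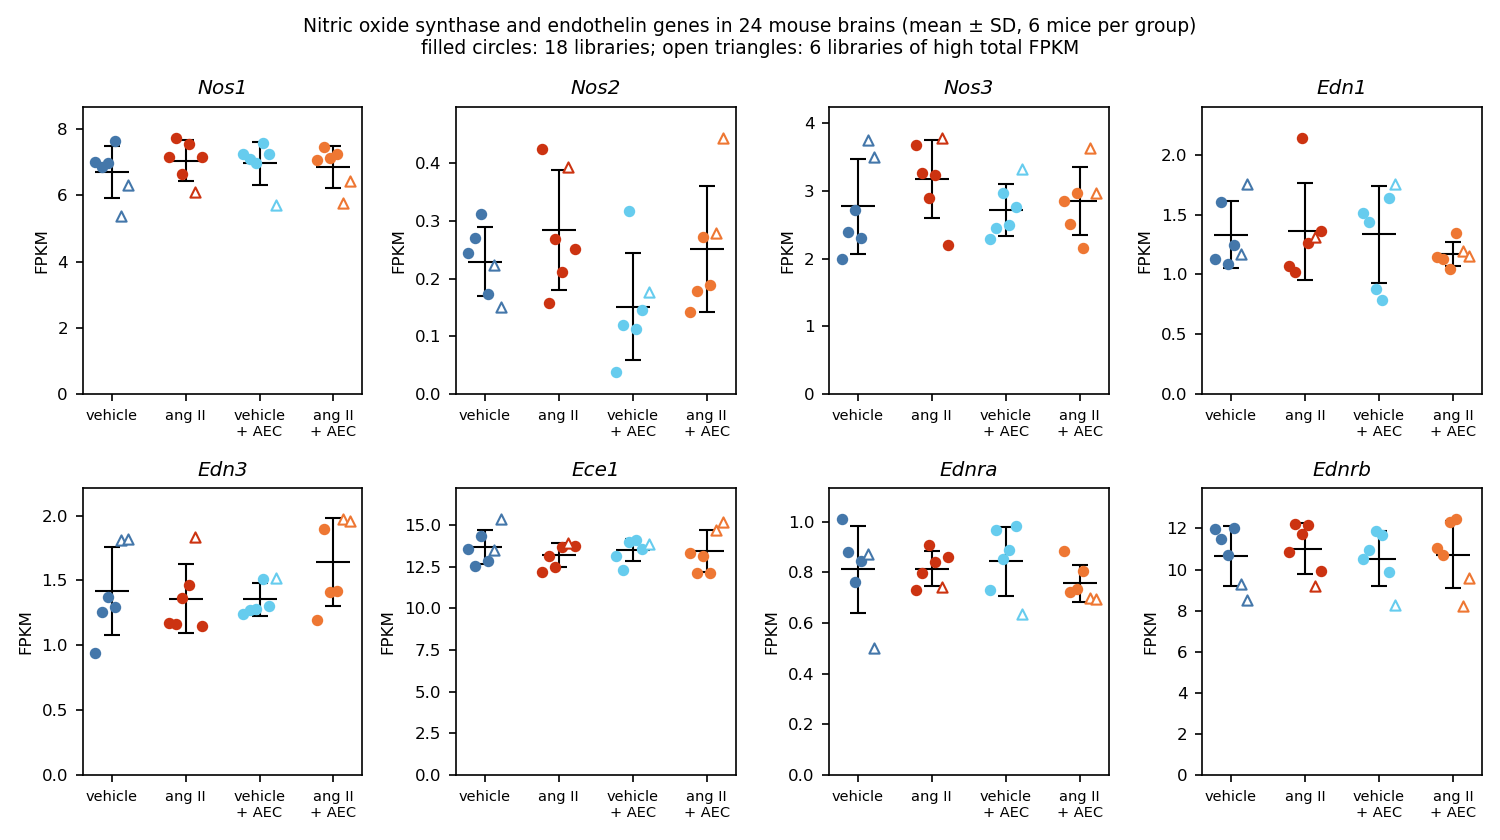
FPKM (vertical axes, each from 0) of the 8 genes in the 4 groups (ang II: angiotensin II; AEC: amnion epithelial cells), 1 point per mouse, with bars for the mean ± SD of 6 mice and open triangles for the 6 libraries of high total FPKM. The groups overlap for every gene, and the open triangles lie below all the filled circles for Nos1 and Ednrb.

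Among the synthases, Nos1 made up 71.5 ± 3.51% of the summed FPKM in the 18 libraries and Nos3 26.4 ± 3.10%. In the 6 libraries of high total FPKM these shares were 61.2 ± 2.93% and 36.0 ± 3.33% (SD, n = 6). Ednrb made up 93.1 ± 0.861% of the summed receptor FPKM in the 18 libraries and 92.8 ± 1.02% in the 6, a difference smaller than the spread within either set. In the 4 groups the mean Nos1 share ranged from 67.2% in the angiotensin II group to 70.8% in the vehicle + amnion epithelial cells group, less than the SD within a group of 5.06 to 7.29 percentage points.

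The genes differed in how steady they were. Within groups, over the 18 libraries, the coefficient of variation was 4.37% for Nos1, 5.43% for Ece1 and 7.50% for Ednrb, against 2.54%, 2.73% and 3.27% that counting reads alone would give. It was 14.7% for Nos3, 14.4% for Edn3 and 27% for Edn1, against counting errors of 6.91%, 9.85% and 14.1%. The spread of Ednra (10.4%) was about its counting error of 10.6%, and that of Nos2 was 40.2% against 25.9%, so that counting error was a large part of the spread of these low genes. Counting errors cover reads only and not the amplification of libraries.

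Angiotensin II infusion was compared with vehicle first. Of the 8 genes, 0 passed an adjusted p of 0.05 in limma's test across 27286 genes, as did 0% of all genes, and 0 passed an unadjusted p of 0.05, against 2.21% of all genes. Differences are given as log2 of FPKM + 0.1, which understates the difference of low genes such as Nos2. The 8 log2 differences ran from -0.05 for Ece1 to 0.20 for Nos3, with a median of 0.04 beside 0.02 over all genes, and the groups overlapped for each gene. The smallest limma adjusted p among the 8 was 0.994.

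Nos3, the synthase that endothelium uses to keep vessels dilated, had the largest of these differences. It ranged from 1.99 to 3.75 FPKM in the vehicle group (median 2.55) and from 2.20 to 3.78 FPKM in the angiotensin II group (median 3.25). The highest vehicle mice were the 2 whose libraries had high total FPKM, at 3.49 and 3.75 FPKM. The log2 difference was 0.20 (SE 0.15, 95% interval -0.11 to 0.52, limma adjusted p = 0.994), and the two-sided exact permutation p was 0.273, where 6 against 6 mice can give no less than 0.00216.

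Among the 18 libraries alone, Nos3 stood at 3.06 ± 0.552 FPKM in 5 angiotensin II mice and at 2.35 ± 0.296 FPKM in 4 vehicle mice, and 4 of the 5 lay above every vehicle mouse. The log2 difference was then 0.36 (SE 0.13, 95% interval 0.08 to 0.63) with an unadjusted limma p of 0.0151 and an adjusted p of 1.0. In these libraries 3.86% of all genes had an unadjusted limma p under 0.05. The two-sided exact permutation p was 0.0794, where 5 against 4 mice can give no less than 0.0159. With the library set as a term in the fit of all 24 mice the difference was 0.27 (SE 0.11, limma adjusted p = 1.0). It then passed an unadjusted p of 0.05, as did 3.46% of all genes. No other member passed an unadjusted p of 0.05 for angiotensin II against vehicle under these settings, and Nos3 itself was not past the adjusted threshold under either.

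Endothelial markers were measured beside Nos3, because bulk tissue cannot tell fewer cells of a type from less RNA per cell. The summed FPKM of 8 endothelial markers in the 18 libraries was 91.2 ± 4.90 in vehicle mice (n = 4) and 93.5 ± 7.06 in angiotensin II mice (n = 5). Over the 18 mice, with group means removed, Nos3 correlated with this sum at Pearson's r = 0.62 (permutation p = 0.00587) and Spearman's rho = 0.54 (permutation p = 0.0210), and r was 0.54 without the 2 mice farthest from the median sum. Of 88 relations of the 8 genes with 11 marker sums, 0 passed after Benjamini-Hochberg adjustment (adjusted permutation p = 0.402 for r and 0.654 for rho here). Before adjustment, r had a permutation p under 0.05 in 5 of the 88. They included Edn3 with cerebellar markers (r = -0.60, permutation p = 0.00914) and Nos1 with endothelial markers (r = -0.48, permutation p = 0.0442). The part of endothelial content in the Nos3 values was not tested further.

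**Figure D2:**
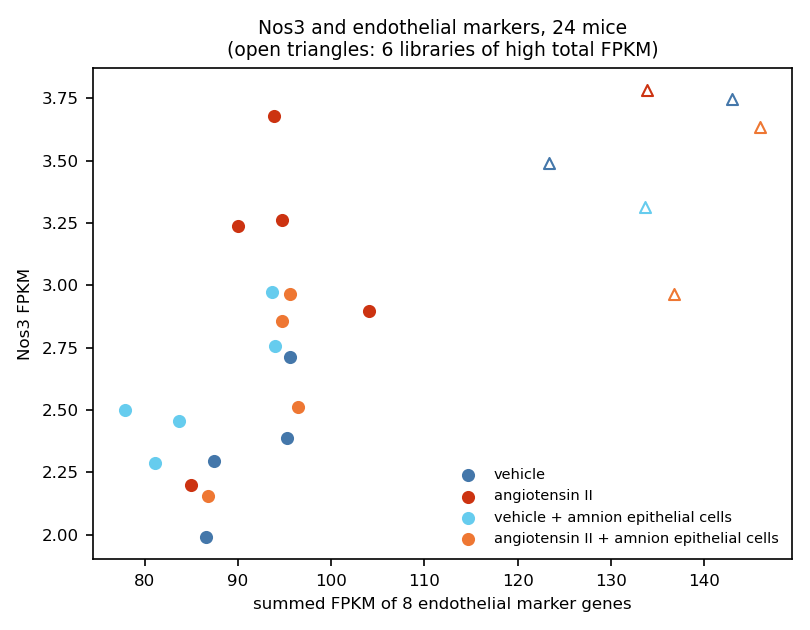
Nos3 FPKM (vertical axis) against the summed FPKM of 8 endothelial marker genes (horizontal axis), 1 point per mouse, coloured by group, with open triangles for the 6 libraries of high total FPKM. The triangles lie to the right, from 123 to 146, and the 18 circles from 77.9 to 104.

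Nos2, which makes large amounts of nitric oxide in inflammation, was the member whose group means spread most relative to its level. It was 0.229 ± 0.0600 FPKM in the vehicle group, 0.284 ± 0.104 FPKM in the angiotensin II group, 0.151 ± 0.0931 FPKM in the vehicle + amnion epithelial cells group and 0.251 ± 0.109 FPKM in the angiotensin II + amnion epithelial cells group (SD, n = 6). The lowest, median and highest mice were 0.151, 0.234 and 0.311 FPKM in the vehicle group, and 0.157, 0.260 and 0.425 FPKM in the angiotensin II group. They were 0.0373, 0.133 and 0.316 FPKM in the vehicle + amnion epithelial cells group, and 0.142, 0.230 and 0.444 FPKM in the angiotensin II + amnion epithelial cells group. All 4 groups overlapped, and 4 of 6 mice given amnion epithelial cells with vehicle lay below every mouse given vehicle alone.

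Angiotensin II was then compared with vehicle among mice given amnion epithelial cells. Again 0 of 8 genes passed the adjusted threshold (0% of all genes). Nos2 was the 1 gene of 8 past an unadjusted p of 0.05, against 2.66% of all genes, with a log2 difference of 0.51 (SE 0.24, 95% interval 0.0086 to 1.0, unadjusted limma p = 0.0465, adjusted p = 1.0, exact permutation p = 0.0866). Of 6 mice given angiotensin II, 5 lay above the mean of the others. The other 7 genes ran from -0.13 for Ednra to 0.24 for Edn3.

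Pooling mice with and without amnion epithelial cells, an analysis chosen after the data were seen, Nos2 was 0.267 ± 0.103 FPKM in 12 mice given angiotensin II and 0.190 ± 0.0850 FPKM in 12 given vehicle. The log2 difference was 0.35 (SE 0.17, unadjusted limma p = 0.0493, adjusted p = 1.0), and the permutation p was 0.0534. In this pooled fit 2.39% of all genes had an unadjusted limma p under 0.05. Across the 18 libraries the Nos2 difference without amnion epithelial cells was 0.03 and that with them 0.34, neither past an unadjusted p of 0.05.

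Neutrophil markers had higher medians in both groups given angiotensin II, and they are given here beside Nos2. The 5 markers (S100a8, S100a9, Ngp, Camp and Retnlg, genes of granule and calcium-binding proteins) were above 0 in 24 of 24 mice, and none of them was at 0 in any library. Their summed FPKM had a median of 7.38 (range 5.15 to 13.8) in the vehicle group, 16.1 (6.49 to 24.1) in the angiotensin II group, 10.2 (7.01 to 14.8) in the vehicle + amnion epithelial cells group and 19.1 (9.46 to 46.3) in the angiotensin II + amnion epithelial cells group. Within groups of the 18 libraries Nos2 and this sum gave r = -0.06 (permutation p = 0.808) and rho = -0.13 (permutation p = 0.598), or r = -0.31 without the 2 farthest mice, both with an adjusted p of 0.897 or more. Microglial markers gave r = 0.11 (permutation p = 0.656) and rho = 0.32 (permutation p = 0.195), with r = 0.56 without the 2 farthest mice. The vessel markers given next had the highest r with Nos2 among the marker sums over the same mice. The sum of 9 smooth muscle and pericyte markers gave r = 0.56 (permutation p = 0.0156) and rho = 0.40 (permutation p = 0.0997), with r = 0.63 without the 2 farthest mice, and endothelial markers gave r = 0.47 (permutation p = 0.0477) and rho = 0.52 (permutation p = 0.0290), with r = 0.52 without them. None passed among the 88 relations (adjusted permutation p = 0.458 and 0.581 for r of the smooth muscle and endothelial sums, and 0.977 for microglia). In the 18 libraries the smooth muscle and endothelial sums were 76.0 ± 4.88 and 86.1 ± 7.38 FPKM in the vehicle + amnion epithelial cells group (n = 5). In the vehicle group they were 79.2 ± 5.93 and 91.2 ± 4.90 FPKM (n = 4). Each difference was smaller than the larger SD of the groups and was not tested. The part of any of these cells in the Nos2 values was not tested further.

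The effect of amnion epithelial cells was compared first in mice given angiotensin II. Of the 8 genes 0 passed the adjusted threshold (0% of all genes) and 0 passed an unadjusted p of 0.05 (2.54% of all genes). Edn3, the peptide that prefers the receptor B, had the largest difference, 0.25 (SE 0.15, 95% interval -0.07 to 0.57, limma adjusted p = 1.0, exact permutation p = 0.117). Its lowest, median and highest values were 1.15, 1.27 and 1.83 FPKM in the angiotensin II group and 1.19, 1.66 and 1.98 FPKM in the angiotensin II + amnion epithelial cells group. The highest of the first group and the 2 highest of the second were libraries of high total FPKM, and among the 18 libraries the difference was 0.20 (exact permutation p = 0.206).

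Edn1, the constrictor peptide of endothelium, was at 1.36 ± 0.406 FPKM in the angiotensin II group and 1.17 ± 0.10 FPKM with amnion epithelial cells, a log2 difference of -0.17 (SE 0.19, 95% interval -0.55 to 0.22, limma adjusted p = 1.0). One angiotensin II mouse stood at 2.14 FPKM, above the next at 1.36 FPKM. Without that mouse the difference with amnion epithelial cells went from -0.17 to -0.04 on the log2 scale (SE 0.18), and that of angiotensin II from vehicle from 0.01 to -0.12 (SE 0.18). None of these passed the test. The other 6 genes ran from -0.15 for Nos3 to 0.02 for Ece1.

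In mice given vehicle, amnion epithelial cells left 0 of 8 genes past the adjusted threshold (0% of all genes) and 0 past an unadjusted p of 0.05 (2.41% of all genes). Nos2 had the largest difference, -0.45 (SE 0.24, 95% interval -0.94 to 0.05, unadjusted limma p = 0.0761, adjusted p = 0.995, exact permutation p = 0.0931). Among the 18 libraries it was -0.58 (SE 0.27, unadjusted limma p = 0.0462, exact permutation p = 0.111), where 4.18% of all genes had an unadjusted limma p under 0.05. Edn1, Edn3, Nos3, Ednrb and Ece1 differed by no more than 0.03 in size, and Nos1 and Ednra by 0.06.

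The interaction of angiotensin II with amnion epithelial cells asks whether one altered the response to the other. It passed the adjusted threshold for 0 of 8 genes (0% of all genes) and an unadjusted p of 0.05 for 0 of 8 (2.54% of all genes). Its estimates ran from -0.15 for Ednra to 0.31 for Nos2, and the smallest limma adjusted p was 0.931. Edn3, at 0.28 (SE 0.22), and Nos2 had the largest values, and both intervals included 0. Without the 6 libraries of high total FPKM, the estimate of Nos3 went from -0.14 to -0.35 (SE 0.19) and that of Edn3 to 0.08 (SE 0.19), and with the library set as a term they were -0.28 (SE 0.16) and 0.14 (SE 0.15), each with a limma adjusted p of 1.0.

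**Figure D3:**
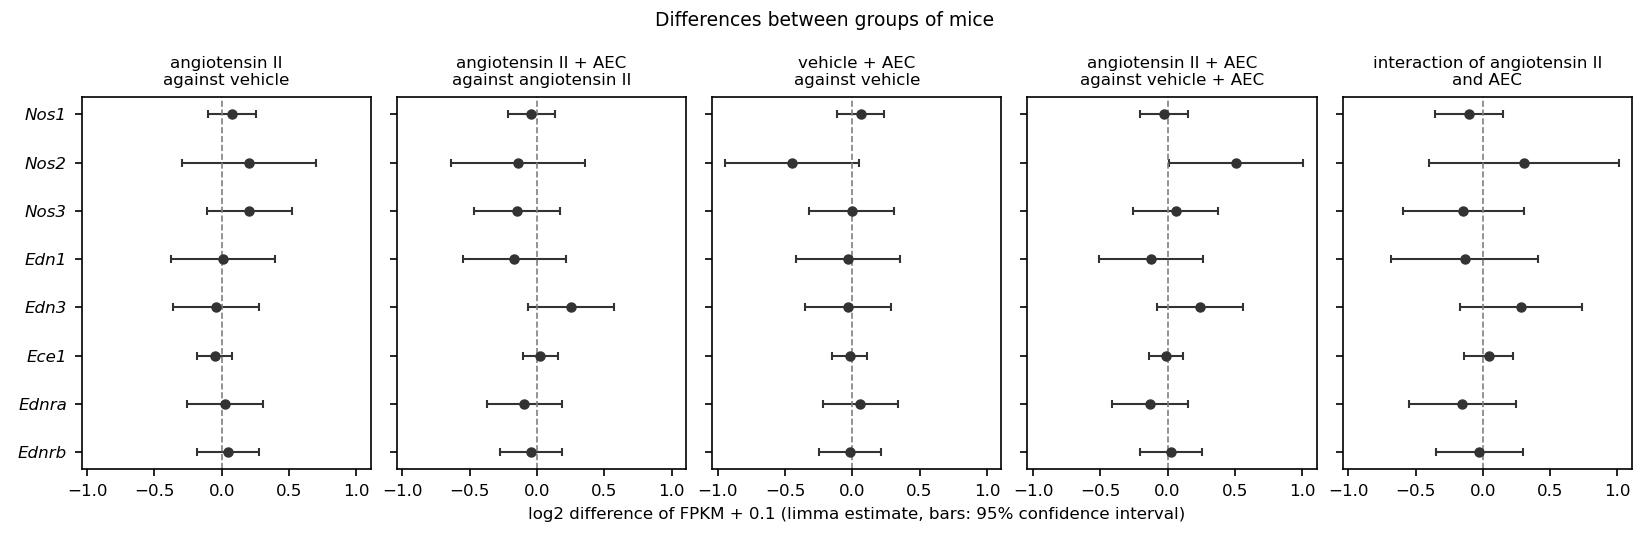
Log2 difference of FPKM + 0.1 (horizontal axes) of the 8 genes for 4 comparisons of groups and the interaction (AEC: amnion epithelial cells), with the limma estimate as a point and its 95% confidence interval as a bar. All intervals include 0 except that of Nos2 between the groups given amnion epithelial cells, which runs from 0.0086 to 1.0.

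What these mice could show differed between genes. Over the 4 comparisons of groups, the 95% intervals of Ece1 stayed between 0.881 and 1.11 times on the scale of FPKM + 0.1, those of Nos1 between 0.859 and 1.19 times, and those of Ednrb between 0.827 and 1.21 times. The intervals of Ednra stayed between 0.752 and 1.27 times, of Nos3 between 0.724 and 1.44 times, of Edn3 between 0.776 and 1.49 times and of Edn1 between 0.681 and 1.32 times. For Nos2 they ran from 0.520 to 2.01 times. These intervals are those of the fit without the library set. With the set as a term, the SE of the log2 difference fell from 0.0855 to 0.0434 for Nos1. It fell from 0.111 to 0.0583 for Ednrb and from 0.0622 to 0.0468 for Ece1. In all 32 comparisons of a gene between groups the mice overlapped, and the smallest two-sided exact permutation p was 0.0866.

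The 6 libraries whose FPKM values summed highest were also compared with the other 18. This set is not one of the study's groups and was found from the summed FPKM alone. With group as a term, 6 of 8 genes passed an adjusted p of 0.05 in limma's test, as did 53.3% of all genes, so that passing was common among genes of any kind. Of the 6 members with a mean of at least 1 FPKM 5 passed in a fit of such genes alone, in which 82.7% of genes did. Nos3, Edn3 and Ece1 were higher in the 6 libraries. Nos1, Ednrb and Ednra were lower. The median log2 difference of the 8 was 0.14 beside -0.07 over all genes.

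Nos1 was 5.94 ± 0.400 FPKM in the 6 libraries and 7.21 ± 0.290 FPKM in the 18, with every one of the 6 (5.36 to 6.43 FPKM) below every one of the 18 (6.63 to 7.74 FPKM), and its log2 difference was -0.27 (SE 0.04, limma adjusted p = 5.3e-07). Ednrb was separated in the same way, at 8.86 ± 0.575 FPKM (8.25 to 9.57) against 11.4 ± 0.817 FPKM (9.89 to 12.5), a difference of -0.36 (SE 0.05, limma adjusted p = 6.02e-07). How many of all genes were separated in this way was not counted. Of genes with a mean of at least 1 FPKM, 82.7% passed for the set. Ednra was 0.691 ± 0.122 FPKM against 0.845 ± 0.0889 FPKM, a difference of -0.26 (SE 0.09, limma adjusted p = 0.0236), and 4 of the 6 lay below all 18. Ednra missed the threshold under median ratio scaling, at -0.20 (limma adjusted p = 0.0796). Astrocyte markers, which mark the cells that carry most Ednrb in brain, summed to a median of 255 FPKM (239 to 270) in the 6 libraries and 295 FPKM (266 to 310) in the 18. The sum of 4 markers of Nos1 interneurons (Sst, Npy, Chodl and Tacr1) went the other way from Nos1. Its median was 488 FPKM (464 to 530) in the 6 libraries and 305 FPKM (272 to 349) in the 18. Nearly all of it was Sst and Npy, with means of 266 and 82.1 FPKM over 24 mice, against 0.388 for Chodl and 1.31 for Tacr1. The 6 general neuronal markers summed to medians of 763 FPKM (740 to 793) and 739 FPKM (701 to 756), with overlapping ranges.

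Nos3 was 3.49 ± 0.309 FPKM in the 6 libraries and 2.67 ± 0.446 FPKM in the 18, a log2 difference of 0.42 (SE 0.09, limma adjusted p = 0.000359). Edn3 was 1.82 ± 0.164 FPKM against 1.32 ± 0.198 FPKM, a difference of 0.43 (SE 0.09, limma adjusted p = 0.000162), and Ece1 was 14.4 ± 0.771 FPKM against 13.1 ± 0.710 FPKM, a difference of 0.14 (SE 0.04, limma adjusted p = 0.0047). All 6 libraries were above the mean of the 18 for each of these genes, although the ranges overlapped. Ece1 missed the threshold under voom on recovered reads, at 0.08 (limma adjusted p = 0.0782). Nos2 (0.25, SE 0.20, limma adjusted p = 0.293) and Edn1 (0.15, SE 0.15, limma adjusted p = 0.415) did not pass. Endothelial markers summed to a median of 135 FPKM (123 to 146) in the 6 libraries and 93.8 FPKM (77.9 to 104) in the 18. Smooth muscle and pericyte markers summed to 132 FPKM (119 to 136) and 79.7 FPKM (70.9 to 87.1). The largest endothelial markers were Cldn5 and Ly6c1, with means of 47.9 and 29.6 FPKM over 24 mice. In the smooth muscle and pericyte sum they were Vtn at 50.1 FPKM and Rgs5 at 19.7 FPKM. These sums follow their largest markers, and single markers were not compared between the sets.

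The library set difference moved with base composition and length across genes. Its median was taken over 13633 genes with a mean of at least 1 FPKM. By GC content it was -0.33 in the lowest quintile and 0.37 in the highest. By gene length it was 0.45 in the shortest quintile and -0.48 in the longest. A read of a short gene adds more to the summed FPKM than a read of a long gene. The trend with length was therefore in part fixed by how the 6 libraries were found. Among the members, GC content of the longest transcript was 58.2% for Nos3, 54.8% for Ece1 and 50.8% for Edn3, which were higher, and 53.8% for Nos1, 46.9% for Ednra and 43.9% for Ednrb, which were lower. Nos1 was also the longest of the 8, at 11151 bases against 2139 to 5476 for the others. The parts of cell content, GC content and length in these differences were not tested.

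The genes around the members in their pathways were described from 3 lists of 40 genes in all. In the cofactor, substrate and partner genes of the synthases (19 genes), abundant members were Qdpr, which recycles the cofactor, at 101 FPKM, and Dlg4, the postsynaptic scaffold that binds Nos1, at 62.7 FPKM. In nitric oxide and cyclic GMP signalling (11 genes) they were Gucy1b1, a subunit of soluble guanylate cyclase, at 24.8 FPKM, Adh5, which removes nitrosoglutathione, at 9.70 FPKM, and Pde9a, which degrades cyclic GMP, at 8.95 FPKM. Among other endothelin pathway genes (10 genes) they were the receptor-coupled G proteins Gna11 and Gnaq at 34.0 and 28.1 FPKM and the phospholipase Plcb1 at 9.20 FPKM. Edn2, the remaining endothelin, had 0 to 6 reads and was above 0 in 18 of 24 mice.

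None of the 40 genes passed an adjusted p of 0.05 in limma's test in any of the 5 comparisons of groups. For angiotensin II against vehicle 0 of 40 passed an unadjusted p of 0.05 (2.21% of all genes), the median log2 difference was 0.05, and the range was -0.25 to 0.35. For amnion epithelial cells in mice given angiotensin II, 1 of 40 passed (2.54% of all genes): Pde9a was 8.36 ± 0.683 FPKM with the cells and 9.34 ± 0.612 FPKM without, a difference of -0.16 (SE 0.07, unadjusted limma p = 0.029, adjusted p = 1.0, exact permutation p = 0.0216). For the cells in mice given vehicle 1 of 40 passed (2.41% of all genes), Nostrin, a protein that moves Nos3 away from the membrane, at 2.35 ± 0.159 FPKM against 1.97 ± 0.287 FPKM, a difference of 0.25 (SE 0.12, unadjusted limma p = 0.0389, adjusted p = 0.995, exact permutation p = 0.0152). For angiotensin II among mice given the cells 1 of 40 passed (2.66% of all genes), Kel, an endothelin-cleaving blood group protein with 0 to 4 reads per library, and for the interaction 0 of 40 passed (2.54% of all genes). These shares are near those of all genes.

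With the library set, 31 of the 40 genes passed the adjusted threshold, 13 higher and 18 lower, beside 53.3% of all genes. Of the 31 with a mean of at least 1 FPKM 26 passed in the fit of such genes, beside 82.7% of them. In nitric oxide and cyclic GMP signalling, 8 of 11 genes passed as lower and 2 as higher. Of all 27286 genes tested, 8454 passed as lower and 6082 as higher, so lower was also the commoner direction over all genes. All 4 of the genes named next were chosen after their values were seen. Nos1ap, the adaptor of Nos1, was 3.25 ± 1.18 FPKM in the 6 libraries and 10.5 ± 0.679 FPKM in the 18 (log2 difference -1.76, SE 0.13, limma adjusted p = 1.01e-16), Prkg1, the cyclic GMP-dependent kinase of smooth muscle, was 0.0642 ± 0.0207 FPKM against 0.294 ± 0.0993 FPKM, and Pde2a was 0.228 ± 0.0952 FPKM against 0.596 ± 0.0950 FPKM. Ddah2, which breaks down a natural inhibitor of the synthases, was 13.0 ± 1.52 FPKM against 7.77 ± 0.992 FPKM (log2 difference 0.72, SE 0.07).

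From mouse to mouse, no pair of the 8 genes correlated past adjustment for multiple tests. Over the 18 libraries, with group means removed, the 28 pairs gave Pearson's r from -0.49 (Edn1 and Ece1) to 0.44 (Nos2 and Nos3), and 16 were positive. After Benjamini-Hochberg adjustment 0 of 28 passed (smallest adjusted permutation p = 0.478), and 2 of 28 had an unadjusted permutation p under 0.05. Edn1 and Ece1 gave r = -0.49 (permutation p = 0.0373) and rho = -0.46 (permutation p = 0.0590), with r = -0.39 without the 2 mice farthest from the median of Edn1. Nos1 and Nos2 gave r = -0.49 (permutation p = 0.0399) and rho = -0.58 (permutation p = 0.0142), with r = -0.34 without the 2 farthest. The ligands and receptors showed no pair past adjustment: Edn3 and Ednrb gave r = 0.01, and Edn1 and Ednra r = 0.30.

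**Figure D4:**
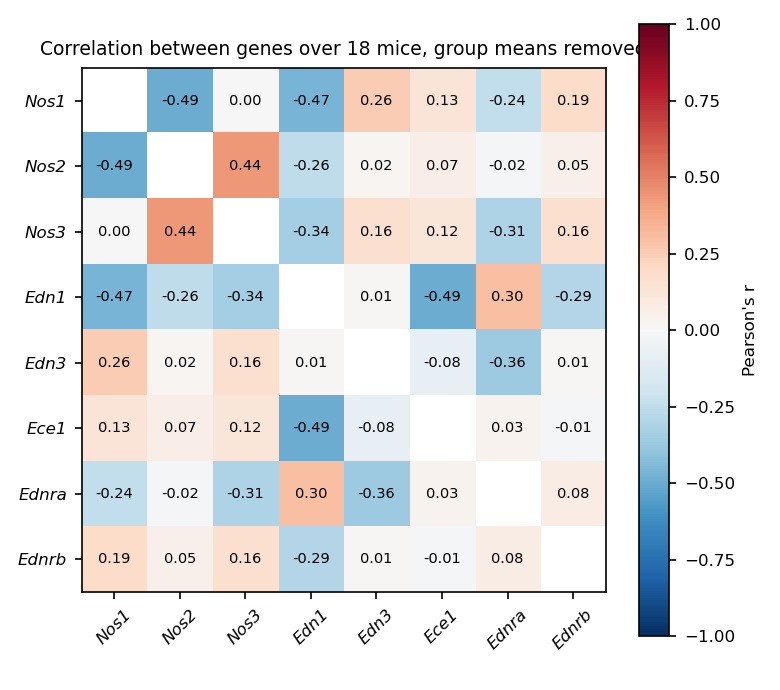
Pearson's r between the 8 genes over the 18 mice outside the library set, with group means removed (colour scale from -1 to 1, values printed in the cells). The values run from -0.49 to 0.44.

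The genes most like each of the 6 members with a mean of at least 1 FPKM, which leaves out Nos2 and Ednra, were sought across the same 18 libraries among 13648 genes, and since they were picked as the highest values they are given with no test. The genes like Nos1 included Ipo5 (r = 0.79) and Pdcd4 (r = 0.73). Nos3 was most like Usp21 (r = 0.84), Klf4 (r = 0.82) and Mrto4-ps1 (r = 0.82). Edn1 was most like Sarnp (r = 0.85), Pcp4 (r = 0.81) and Hhipl1 (r = 0.77), and Edn3 was most like Apln (r = 0.86), Ntpcr (r = 0.84) and Cmbl (r = 0.83). Ednrb was most like Arcn1, D3Ertd254e and Smc5 (each r = 0.82), and Ece1 was most like Gemin5 (r = 0.76), Tpm4 (r = 0.75) and Tpd52l2 (r = 0.74). None of the genes named here is another member or a gene of the 3 lists.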

How the data were processed

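Poly-A RNA of 24 brain hemispheres was sequenced by the authors on an Illumina HiSeq, and the submitters' processing notes name GRCm38, mm10 and DESeq 1.10.1. The aligner is not given in the sources used here. The authors deposited 1 table of FPKM for 54532 genes. Multiplying FPKM by gene length and a factor per library gave whole reads for 100.0% of values (tolerance 0.05), 16536449 to 25308700 per library.

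The test was limma 3.58.1 (R 4.3.3) on log2(FPKM + 0.1) with 4 groups, a mean trend and Benjamini-Hochberg adjustment over 27286 genes above 0 in at least 6 mice. It was tested on simulated reads with known changes, the same spread setting for every gene and no library set. That test therefore does not cover the difference between the library sets. Exact permutation tests were two-sided. Correlations were permuted 100000 times (numpy 2.4.6, scipy 1.17.1). The library set was split at a total FPKM of 318317.5.

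The members and the lists were chosen with earlier results of these data known. All 8 members were named. Genes of the lists were named for an unadjusted p under 0.05 in a comparison of groups, or as the 3 most abundant of a list for their level, and 2 genes that the rules select are not reported here. Replicates were separate mice. Between mice of a group, chi-square per gene was 3.18 to 96.2, so that none was a copy. Alternatives were other pseudocounts (1 and 0.01), filters, scaling, voom on recovered reads, array weights, a replicate block, the library set as a term or left out, and each mouse left out.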

Additional observations from a re-analysis of the deposited data

Results flagged for a closer look

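In each group of 6 mice, the highest and lowest value of each of the 8 genes was checked for its distance from the next mouse. Of 32 groups of values 2 stood out, where chance gives about 1.6, or 1 in 20. Nos1 was lowest in vehicle + amnion epithelial cells replicate 6, at 5.72 FPKM with the next mouse at 6.97 FPKM (gap of 0.673 of the range). That library is 1 of the 6 of high total FPKM, all of which were below the other 18 for Nos1. Edn1 was highest in angiotensin II replicate 3, at 2.14 FPKM with the next mouse at 1.36 FPKM (gap of 0.696 of the range). That library is not of the set.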

How the results depend on the processing

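The count of members past the adjusted p was 0 in each of the 5 comparisons of groups under all the alternatives run, and leaving out each mouse in turn gave 0 of 960 values past it. Counts past an unadjusted p of 0.05 were 0 or 1 of 8 throughout. For angiotensin II against vehicle the count went from 0 to 1 (Nos3) with array weights, with the library set as a term and in the 18 libraries, and to 1 (Nos2) when pooled over amnion epithelial cells, which was added after the data were seen. For amnion epithelial cells in vehicle mice it went from 0 to 1 (Nos2) with array weights and in the 18 libraries. For angiotensin II among mice given the cells it went from 1 (Nos2) to 0 with a pseudocount of 1, no filter, a mean FPKM of at least 1 (where Nos2 is not tested), the compared groups only, array weights, the library set as a term and the 18 libraries. Leaving out 1 mouse gave counts of 0 to 0 for angiotensin II against vehicle and the interaction, and of 0 to 1 for the other 3 comparisons. Nos2 among mice given the cells ran from 0.35 to 0.67 and lost its unadjusted p without any of 12 of 24 mice (vehicle 1, 2 and 5, angiotensin II 3 and 6, vehicle + amnion epithelial cells 1, 2, 4 and 5, angiotensin II + amnion epithelial cells 3, 5 and 6). Edn3 gained one for the cells with angiotensin II without angiotensin II replicate 5 (0.34) or angiotensin II + amnion epithelial cells replicate 1 (0.33), and Nos2 for the cells in vehicle mice without vehicle + amnion epithelial cells replicate 3 (-0.61).

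Same-numbered mice of different groups correlated at -0.22 to 0.80 (28 of 36 pairs over 0.1) and 7 of 24 mice were closest to their own number, so that not every pair was over 0.1 and nothing in the labels ties the numbers to a litter or day. They were taken as numbers only, though the correlations are a hint from the data that some mice of a number share more than that, and all 6 libraries of the set are numbered 5 or 6. With a replicate block the counts past the adjusted p stayed at 0 for the groups, and over all genes the count past an unadjusted p of 0.05 went from 604 to 950 for angiotensin II against vehicle and from 692 to 1416 for the interaction. The library set count went from 6 to 3 of 8 (Nos1, Nos3 and Edn3) under the block, and the share of all genes from 53.3% to 33.0%. Ednra also missed the threshold under median ratio scaling (-0.20) and Ece1 under voom (0.08). The median of all genes for the set went from -0.07 to -0.18 under voom and -0.04 under median ratio scaling, and the 6 members that passed kept their direction. Of 1390 values of members under alternatives for the groups, 86 changed sign, 0 of them past an unadjusted p of 0.05. The correlation count of 0 of 28 pairs was the same under each alternative. Depth limits Nos2, at 3 to 44 reads, most.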
